A study of Homo sapiens with 5 samples.

Results

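The galectin genes LGALS1, LGALS2, LGALS3, LGALS4, LGALS8 and LGALS9 were taken by name from the array's gene annotation, and all 6 had a probe set among the 7713 genes measured. Each had 1 probe set. The set was chosen by the measured LY294002 minus DMSO difference of LGALS2, with its relatives added by name, so the differences of all 6 between the treatments are given as a description, without p-values, and the count of these genes past a threshold supports nothing. The arrays were made from KM-H2, an established Hodgkin lymphoma line of B-cell origin, kept for 16 hours in serum-containing medium with 30 uM LY294002 (2 arrays) or with its solvent DMSO (3 arrays). The compound LY294002, a morpholine, inhibits phosphoinositide 3-kinase and also binds mTOR and BET bromodomain proteins. The design planned triplicates, and 1 array was left out by the submitters for high background. The labels do not say that the replicates were separate cultures, so errors and p-values describe array-to-array spread that may be only technical, and the number of arrays limits their precision.

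Galectins are proteins that bind glycans carrying galactose, above all N-acetyllactosamine (LacNAc), the repeating unit of branched N-glycans and of extended O-glycans. They are made in the cytosol, leave the cell by a route without a signal peptide, and crosslink glycoproteins on cell surfaces. They fall into a prototype class with a single carbohydrate-binding domain (LGALS1 and LGALS2), a chimera class with a long repetitive tail (LGALS3), and a tandem-repeat class with a pair of such domains (LGALS4, LGALS8 and LGALS9). In classical Hodgkin lymphoma, galectin-1, the LGALS1 product, is abundant in Reed-Sternberg cells, its gene is driven by AP-1, and the protein is known to kill or restrain activated T cells.

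The 250 bases before the RefSeq start site are shown for LGALS2 and LGALS9, the galectin genes whose LY294002 arrays both lay below every DMSO array, and for IFI27, the gene whose values followed LGALS2 most closely over the arrays. IFI27 is an interferon-induced gene. The sequences are from RefSeq on build GRCh38.p14, 5′ to 3′ on the gene's strand, at chr22:37580088-37580337 (minus strand) for LGALS2, chr17:27630938-27631187 (plus strand) for LGALS9 and chr14:94110486-94110735 (plus strand, the first of 2 windows) for IFI27. Capitals mark matches, on either strand, to the interferon response element (a pair of GAAA blocks with 2 free bases between them) or to the TATA box TATAAA.
LGALS2: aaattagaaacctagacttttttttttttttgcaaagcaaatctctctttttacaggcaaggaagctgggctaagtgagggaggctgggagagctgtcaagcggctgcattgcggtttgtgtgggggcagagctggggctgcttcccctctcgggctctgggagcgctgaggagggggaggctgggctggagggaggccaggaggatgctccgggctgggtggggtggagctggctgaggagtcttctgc
LGALS9: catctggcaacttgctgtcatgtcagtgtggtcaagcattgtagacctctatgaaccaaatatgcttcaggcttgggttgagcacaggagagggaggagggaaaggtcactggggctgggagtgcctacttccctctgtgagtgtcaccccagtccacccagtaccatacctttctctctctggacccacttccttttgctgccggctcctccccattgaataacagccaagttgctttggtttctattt
IFI27: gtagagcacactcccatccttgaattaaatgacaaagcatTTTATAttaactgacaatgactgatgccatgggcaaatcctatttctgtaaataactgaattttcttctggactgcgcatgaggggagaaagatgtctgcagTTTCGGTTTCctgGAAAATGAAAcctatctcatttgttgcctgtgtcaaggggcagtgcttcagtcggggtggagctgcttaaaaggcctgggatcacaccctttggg
The IFI27 window held 2 matches to the interferon response element, a motif present in 3.02% of 35116 such windows, and the LGALS2 and LGALS9 windows held 0. The same windows of LGALS2 and LGALS9 also held 0 matches on either strand to the AP-1 motif TGANTCA (6.57% of windows), GAGGAA of Ets factors such as SPI1 and SPIB (23.6%), GTAAACA of FOXO factors (2.98%), TATAAA (10.7%), GGGCGG (42.6%) and CACGTG (6.34%). The LGALS4 window (chromosome 19) held 1 match to GAGGAA, and the LGALS3 window (chromosome 14) held 3 to GGGCGG. LGALS8 (chromosome 1) had windows at 3 start sites, with 1 match to GAGGAA and 2 to TATAAA in the first, 1 to GAGGAA in the second and 1 to GGGCGG in the third. A promoter entry was matched for 5 of the 6 galectin genes. LGALS1 was not among them. Absence of a match says only that these letters are not in these windows.

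Before the galectin values, the arrays were compared with one another. The array medians ran from 6.26 to 6.29 (log2), and Pearson's r across probe sets was 0.996 to 0.998 within a group and 0.989 to 0.992 between groups. LY294002 replicate 1 stood apart among dim probe sets: over 3128 probe sets with a mean between 5 and 6.5, its median deviation from the DMSO mean was -0.04, against -0.0023 on LY294002 replicate 2. It was the lowest of the 5 arrays for 2450 of 7713 genes. It also stood apart among bright probe sets: its upper quartile was 7.69, against 7.59 to 7.62 on the other arrays. Identical values on 2 or more arrays occurred in 4360 genes (56.5%). The label of the cells was checked against Hodgkin-associated genes: of 27 measured, 6 had both group means below the array medians, and TNFRSF8, the gene of the Hodgkin marker CD30, was at 7.71 and 7.39 on the LY294002 arrays and 8.13, 8.49 and 8.09 on the DMSO arrays. All 7 measured monocyte and macrophage markers and 7 of 10 intestinal epithelial markers had both group means below the array medians. So did 3 of 8 B cell markers and 2 of 9 T cell markers, beside 3742 of 7713 over all genes. Each probe set binds with its own efficiency, so these counts are a rough check that cannot settle the label.

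LGALS2 was lower with LY294002 on every array and LGALS9 was lower by less, while LGALS1, LGALS3, LGALS4 and LGALS8 had overlapping groups. Of the 6 differences 5 were below 0, beside 4277 of 7713 over all genes. Both LY294002 arrays lay below all DMSO arrays in 2 of 6, where 13.4% of all genes did, and 1 of 6 (LGALS2) was past the limma threshold of an adjusted p under 0.05 in the lower direction, where 0.298% of all genes were. These counts stem from the comparison that led to the choice of the genes. The median difference was -0.17 on the log2 scale for the 6 galectin genes and -0.01 for all genes.

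**Figure D1:**
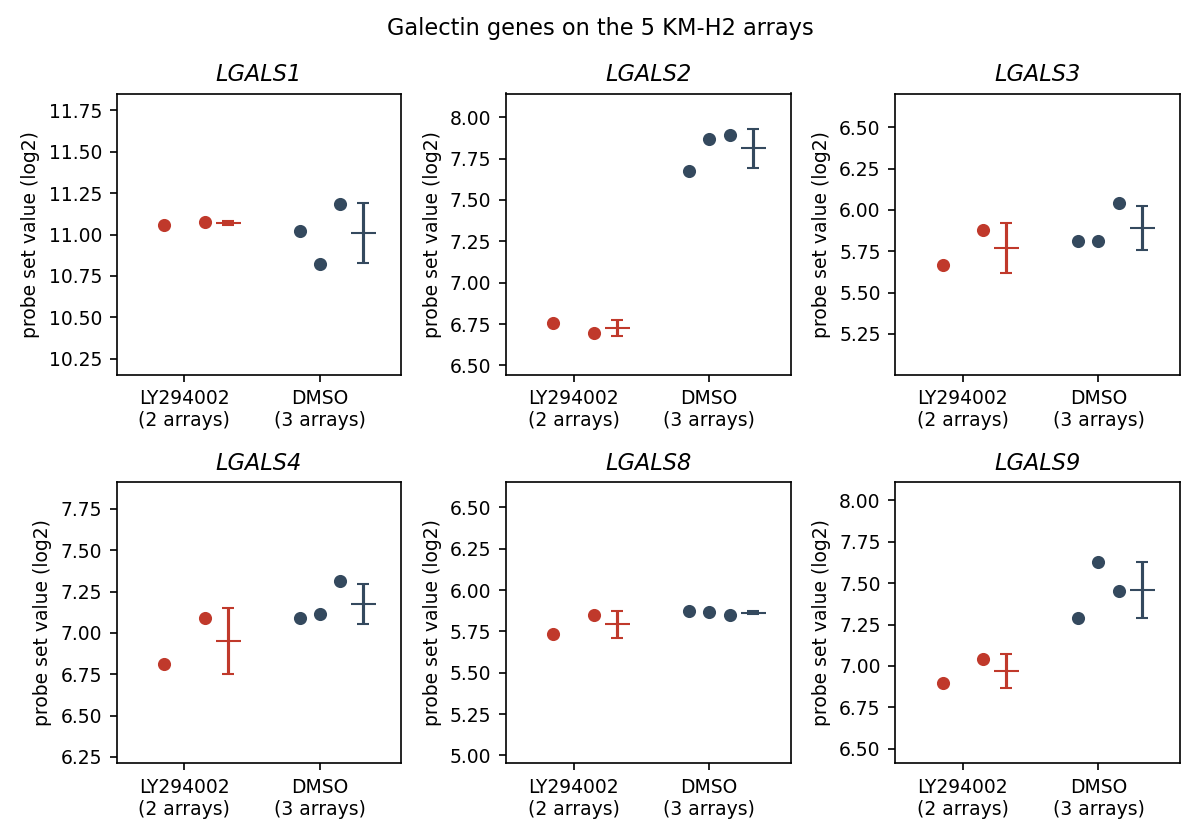
Probe set values (vertical axis, log2) of the 6 galectin genes on the 2 LY294002 arrays (red) and the 3 DMSO arrays (dark), with the group mean and SD beside the points; every panel spans the same number of log2 units. The LY294002 points lie below all DMSO points in the LGALS2 and LGALS9 panels and overlap with them in the other panels.

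Among the prototype galectins, LGALS2 encodes galectin-2, known mainly from gut epithelium and as a binding partner of lymphotoxin-alpha. Its log2 values were 6.76 and 6.69 on the LY294002 arrays, against 7.68, 7.87 and 7.89 on the DMSO arrays. The groups did not overlap, and the gap between the highest LY294002 and the lowest DMSO array was 0.92, set beside a range of 0.07 within LY294002 and 0.22 within DMSO. The means were 6.73 ± 0.05 (SD, n = 2) with LY294002 and 7.81 ± 0.12 (SD, n = 3) with DMSO. The difference was -1.09 ± 0.08 (standard error), a level 0.471 times that of DMSO. How much of either level is background was not tested, and background can make a change look smaller. This difference was the sixth lowest of the 7713 genes. Leaving out 1 array moved it between -1.15 and -1.05, and it was past the threshold in 0 of these 5 fits, in which 0 to 4 genes were called in place of 70.

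LGALS1 is the galectin gene tied to Hodgkin cells. It had log2 values of 11.06 and 11.08 on the LY294002 arrays, against 11.02, 10.82 and 11.18 on the DMSO arrays. Both LY294002 arrays lay inside the DMSO range, which spanned 0.36. The means were 11.07 ± 0.01 (SD, n = 2) with LY294002 and 11.01 ± 0.18 (SD, n = 3) with DMSO, and the difference was 0.06 ± 0.11 (standard error). It was -0.03 without DMSO replicate 2, the lowest array, and 0.15 without DMSO replicate 3, so its sign rests on single DMSO arrays. Brightness cannot be set against that of the other galectin genes, since each probe set binds with its own efficiency.

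The chromosomal position of these prototype genes was also looked at, chosen after the values were seen. LGALS2 and LGALS1 lie close together on chromosome 22 in the RefSeq gene table, with 3 protein-coding genes between them. GGA1, an adaptor of Golgi trafficking, differed by 0.05 ± 0.04, and SH3BP1, the other measured gene between them, by -0.08 ± 0.05. Among the genes between LGALS2 and LGALS1 and the 5 on either side, 6 of 13 were measured. Of these 0 passed the limma threshold, where 0.908% of all genes did, so a count of 0 among 6 says little. The differences of the 6 ran from -0.12 to 0.05. MFNG at -0.10 ± 0.06 and GCAT at -0.05 ± 0.03 had both LY294002 arrays below all DMSO arrays, where 13.4% of all genes did. The groups of the other measured neighbours overlapped.

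LGALS3, the chimera galectin, which binds glycans at the surface and also acts inside cells, was at 5.67 and 5.88 on the LY294002 arrays and at 5.81, 5.81 and 6.04 on the DMSO arrays. The groups overlapped, and DMSO replicates 1 and 2 held an identical value. The difference was -0.12 ± 0.11 (standard error), and -0.01 without LY294002 replicate 1. Both group means lay below the array medians, where a probe set value can be mostly background and a change can be understated.

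Of the tandem-repeat galectins, LGALS9 encodes galectin-9, a ligand of the T cell receptor TIM-3 (HAVCR2). It was at 6.90 and 7.04 on the LY294002 arrays, against 7.29, 7.63 and 7.45 on the DMSO arrays. The groups did not overlap, and the gap between them was 0.25, smaller than the DMSO range of 0.34. The means were 6.97 ± 0.10 (SD, n = 2) with LY294002 and 7.46 ± 0.17 (SD, n = 3) with DMSO. The difference was -0.49 ± 0.12 (standard error), a level 0.712 times that of DMSO, and it ran from -0.57 to -0.40 when 1 array was left out. As with LGALS2, the part of background in these levels was not tested. The name of the LGALS9 probe set marks it as one that can bind several transcripts, as do the names of the LGALS3 and LGALS8 probe sets. LGALS9B and LGALS9C are near-identical copies of the LGALS9 gene, so the value is uncertain as that of LGALS9 alone.

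LGALS4, a galectin of gut epithelium, was at 6.81 and 7.09 on the LY294002 arrays and at 7.09, 7.11 and 7.31 on the DMSO arrays. LY294002 replicate 2 and DMSO replicate 1 held an identical value, so the groups touched. The difference was -0.22 ± 0.12 (standard error), -0.08 without LY294002 replicate 1 and -0.36 without LY294002 replicate 2. LGALS8, whose product marks damaged vesicles for autophagy by binding CALCOCO2, was at 5.74 and 5.85 on the LY294002 arrays and at 5.87, 5.87 and 5.85 on the DMSO arrays. Its difference of -0.07 ± 0.04 (standard error) rested on LY294002 replicate 1 and was -0.01 without it. As with LGALS3, both group means of LGALS8 lay below the array medians, where a value can be mostly background. LY294002 replicate 1 was the lowest array for LGALS3, LGALS4, LGALS8 and LGALS9, as it was for the largest number of all genes; the part of this in their differences was not tested, beyond the values without that array.

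Of 11 other galectin family genes 3 were measured. LGALS13 and LGALS14, galectins of the placenta, had differences of -0.17 ± 0.09 and -0.15 ± 0.08, and CLC, the Charcot-Leyden crystal protein of eosinophils, had -0.05 ± 0.04. In each, LY294002 replicate 1 was the lowest array and the groups overlapped. A probe set annotated to both LGALS7 and LGALS7B differed by -0.01 ± 0.03 and stands for neither.

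**Figure D2:**
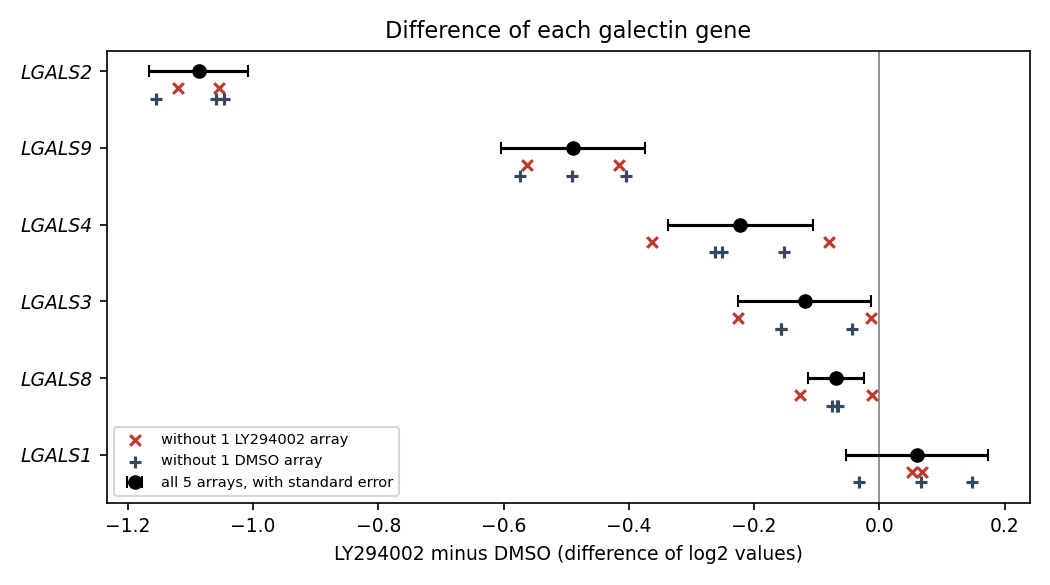
Difference between LY294002 and DMSO (horizontal axis, log2) for the 6 galectin genes, with the standard error of the fit to all 5 arrays (black) and the value after leaving out 1 LY294002 array (red crosses) or 1 DMSO array (dark plus signs). LGALS2 stays between -1.15 and -1.05 and LGALS9 between -0.57 and -0.40, while LGALS1 is found on both sides of 0.

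The genes most like LGALS2 were those with the smallest root mean square difference of log2 deviations over the 5 arrays, where a deviation is the value minus the mean of both group means. The 5 nearest were IFI27 (0.0418), PCP4, a calmodulin-binding protein (0.0609), SPIB, an Ets factor of B cells (0.0792), NME4, a mitochondrial nucleoside diphosphate kinase (0.121), and CORO1A, an actin-binding protein of leukocytes (0.127). The sixth gene was at 0.148 and the median over genes was 0.545. IFI27 was at 8.04 and 7.94 on the LY294002 arrays, against 8.93, 9.03 and 9.09 on the DMSO arrays, a difference of -1.03 ± 0.07 (standard error). CORO1A, the last of the 5, differed by -0.84 ± 0.07. With 2 groups on 5 arrays the measure mostly picks genes with a like difference between the treatments. Within DMSO, replicate 1 was the lowest array for LGALS2 and for all 5 of these genes. The measure used the DMSO arrays too, so the selection favours this shared order and it supports nothing further. Over all 7713 genes, DMSO replicate 1 was the lowest of the 5 arrays for 1738, against 926 for replicate 2 and 1249 for replicate 3.

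**Figure D3:**
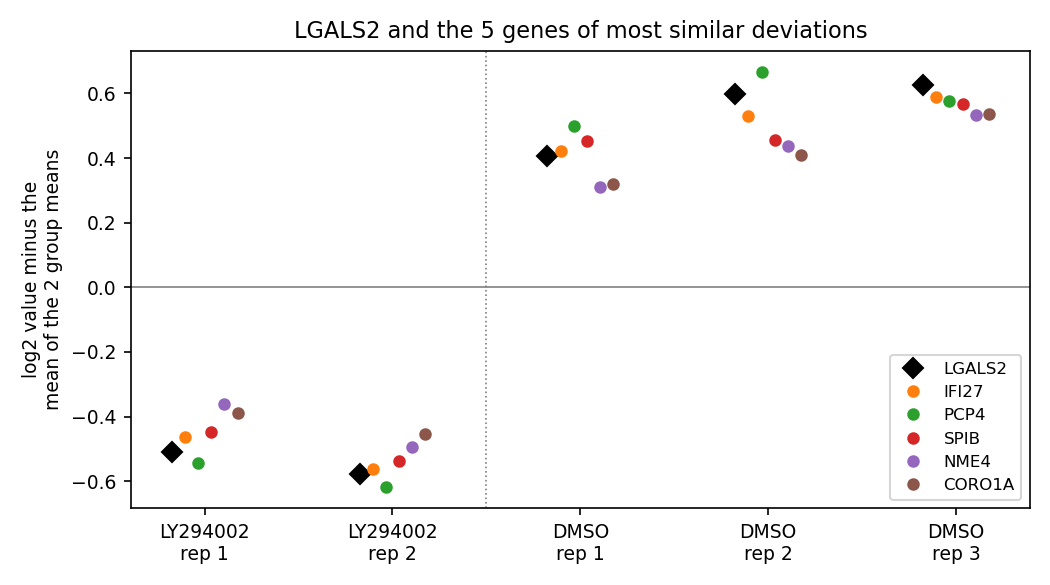
Log2 values minus the mean of both group means (vertical axis) on the LY294002 arrays (left of the dotted line) and the DMSO arrays for LGALS2 (black diamonds) and the 5 genes nearest to it. All 6 genes are below 0 on both LY294002 arrays and above 0 on all DMSO arrays.

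Of 8 B cell markers measured, 2 fell (BLNK, the B cell receptor adaptor, at -1.48 ± 0.15, and CR2, the complement receptor, at -0.76 ± 0.08) and 0 rose, where 0.298% of all genes fell. Groups were apart with LY294002 lower in 5 of the 8, where 13.4% of all genes were. MS4A1, the gene of CD20, was at -0.999 ± 0.147 (limma adjusted p = 0.073), CD74 at -0.15 ± 0.10 and CD22 at -0.07 ± 0.05, and CD79B and CD79A were above 0 at 0.01 ± 0.03 and 0.06 ± 0.07; these 5 are named outside the rule with their values known. BLNK, MS4A1 and CR2 had the largest differences of the 8, so a sum does not show a fall shared by all of them. The summed log2 level of the 8 was 59.8 to 60.0 with LY294002 and 63.1 to 63.8 with DMSO. Both calls were lost in each fit without 1 array (limma adjusted p from 0.0716 to 0.199). Among the 10 intestinal epithelial markers, listed because LGALS2 and LGALS4 are known from gut, 0 passed and 3 had both LY294002 arrays below the DMSO range: CDH17 at -0.19 ± 0.03 (limma adjusted p = 0.0765), EPCAM at -0.09 ± 0.05 (0.443) and CDH1 at -0.04 ± 0.03 (0.526). The summed level of the 10 was 53.4 to 54.4 with LY294002 and 54.2 to 54.7 with DMSO. CDX2, named outside the rule with its values known, was at 5.81 and 6.48 on the LY294002 arrays, so 1 gene weighs in that range. For the 7 monocyte and macrophage markers 0 passed, and 1 (ITGAM) had both LY294002 arrays below the DMSO range. The summed level was 35.8 to 36.1 with LY294002 and 36.4 to 36.9 with DMSO, and ITGAM had the largest difference in it, at -0.48 ± 0.17. For the 9 T cell markers, several of which Hodgkin lines are known to express, 0 passed, 8 had differences below 0, and 4 had both LY294002 arrays below the DMSO range. Over all genes 0.908% passed, 4277 of 7713 differences were below 0, and 13.4% had both LY294002 arrays below. At 0.908% called, a count of 0 says little about the intestinal, monocyte or T cell lists, which are short. CD4 was at -0.21 ± 0.06 (limma adjusted p = 0.178), CD3E at -0.18 ± 0.07 (0.303) and CD28 at -0.12 ± 0.03 (0.192). The summed level of the 9 was 63.2 to 63.9 with LY294002 and 64.6 to 64.7 with DMSO. The part of these markers in the galectin values was not tested. By their labels all arrays are of 1 cell line, so these markers are not measures of separate cell types in a mixture. Within the line, fewer cells with a transcript and less of it per cell cannot be told apart.

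Proteins that galectins bind, or that bind galectins, were listed as 34 genes, of which 29 were measured. By limma 0 rose and 0 fell, where 0.908% of all genes were called. Groups did not overlap in 2 genes with both LY294002 arrays above and 8 with both below, while 29.6% of all genes had groups that did not overlap. The median difference was -0.03, beside -0.01 over all genes. CD44, the hyaluronan receptor and a galectin ligand, was at 8.58 and 8.44 on the LY294002 arrays, against 7.63, 8.11 and 7.81 on the DMSO arrays, a difference of 0.67 ± 0.16 (limma adjusted p = 0.145). ITGAM, an integrin chain of myeloid cells, was at -0.48 ± 0.17 (limma adjusted p = 0.261), and LAG3, a T cell inhibitory receptor, at -0.33 ± 0.10 (0.2). CALCOCO2, the autophagy receptor that LGALS8 recruits, was at 0.25 ± 0.05 (0.112); it lies outside the rule for named genes and was picked with its values known. PTPRC, the phosphatase CD45 and a receptor of galectin-1, was at 0.23 ± 0.13 (0.438), CD7, another receptor of galectin-1, at -0.04 ± 0.05 (0.663), and LGALS3BP, the secreted binder of galectin-3, at 0.04 ± 0.11 (0.873). SPN, ITGB1 and HAVCR2 had no probe set named for 1 gene.

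Enzymes that build or cap galectin ligands were measured for 51 of 64 genes in 3 lists; 1 rose, where 0.609% of all genes did, 0 fell, and the median difference was 0.02. The riser was GNE, which catalyses the first steps of sialic acid synthesis. It was at 7.02 and 7.06 on the LY294002 arrays, against 6.63, 6.67 and 6.63 on the DMSO arrays, a difference of 0.40 ± 0.03 (limma adjusted p = 0.0315). The call was lost in each fit without 1 array, with an adjusted p from 0.0685 to 0.165 and differences from 0.38 to 0.42. Of 15 sialic acid genes, 3 had both LY294002 arrays above all DMSO arrays and 2 had both below (16.2% and 13.4% of all genes). In N-glycan branching and LacNAc synthesis, 8 of 26 genes had both above and 0 had both below, beside the same shares. In that list 0 passed, where 0.908% of all genes did, and the median was 0.05. Those with the largest differences of the 8 were SLC35A2, the Golgi UDP-galactose transporter, at 0.44 ± 0.20 (limma adjusted p = 0.377), MAN2A1, a Golgi mannosidase, at 0.37 ± 0.17 (0.385), and B3GNT2, which extends LacNAc chains, at 0.34 ± 0.12 (0.274). On LY294002 replicates 1 and 2, SLC35A2 was at 7.28 and 6.65, MAN2A1 at 7.46 and 6.98, and B3GNT2 at 8.48 and 8.51. SLC35A2 and MAN2A1 thus lean on replicate 1, and its part in the count of 8 was not tested. MGAT5, the branching enzyme whose products galectin-3 prefers, was at -0.08 ± 0.08 (0.593), MGAT1, which starts complex N-glycans, at 0.10 ± 0.04 (0.349), and B4GALT1, a galactosyltransferase, at -0.10 ± 0.05 (0.424).

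In O-glycan core synthesis 0 of 10 genes passed. C1GALT1, which makes the galactose-containing core of O-glycans, was at 5.73 and 5.58 on the LY294002 arrays, against 5.19, 5.12 and 5.18 on the DMSO arrays. These groups did not overlap, and the difference was 0.49 ± 0.06 (limma adjusted p = 0.0539). GALNT2, which starts O-glycans, was at 0.26 ± 0.10 (0.304) and GALNT6, of the same family, at -0.22 ± 0.08 (0.26). GCNT1, which makes the branched core favoured by galectin-1, was at -0.17 ± 0.08 (0.388). ST6GAL1, which adds the sialic acid linkage that blocks galectin-1 binding, was at 6.64 and 6.60 on the LY294002 arrays, against 6.82, 6.92 and 6.83 on the DMSO arrays, a difference of -0.24 ± 0.04 (limma adjusted p = 0.0965). ST3GAL1, another sialyltransferase, was at -0.03 ± 0.05 (0.78).

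LGALS1 was set beside other genes of Hodgkin cells and beside AP-1 factors. Of 27 other Hodgkin-associated genes 1 rose, where 0.609% of all genes did, and 0 fell: IRF4, a factor of plasma cell differentiation, by 0.66 ± 0.07 (limma adjusted p = 0.0473), a call lost in each fit without 1 array (adjusted p 0.0875 to 0.215). The LY294002 arrays were both above the DMSO range in 6 of the 27 (16.2% of all genes) and both below it in 7 (13.4% of all genes), and the median was 0.0072. TNFRSF8 differed by -0.68 ± 0.17 (0.157), CCL17, a chemokine that draws T cells, by -0.37 ± 0.17 (0.376), and FSCN1, an actin-bundling protein, by -0.30 ± 0.15 (0.395). These genes, listed by name, do not stand for the list, in which 14 differences were above 0 and 13 below. Among those above 0 were NFKBIA at 0.75 ± 0.22 (limma adjusted p = 0.206) and CD70 at 0.52 ± 0.07 (0.0576). Both are named outside the rule with their values known. Of 12 AP-1 factor genes 0 passed, 5 had both LY294002 arrays above all DMSO arrays (16.2% of all genes) and 2 below (13.4%), and the median was 0.10. The 2 below were BATF3 at -0.42 ± 0.08 (limma adjusted p = 0.0961, the smallest of the list) and BATF at -0.38 ± 0.12 (0.217), both named outside the rule with their values known. JUNB was at 10.20 and 9.93 on the LY294002 arrays, against 9.48, 9.57 and 9.63 on the DMSO arrays, a difference of 0.51 ± 0.10 (limma adjusted p = 0.105). JUND differed by 0.51 ± 0.18 (0.268), ATF3 by 0.46 ± 0.16 (0.271) and JUN by 0.37 ± 0.09 (0.147). JUNB, JUND, ATF3 and JUN were all higher on LY294002 replicate 1 than on replicate 2. The part of that array in these differences was not tested. LGALS1, at 0.06 ± 0.11, lay within the DMSO spread on these same arrays; whether its difference departs from those of the AP-1 genes was not tested.

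**Figure D4:**
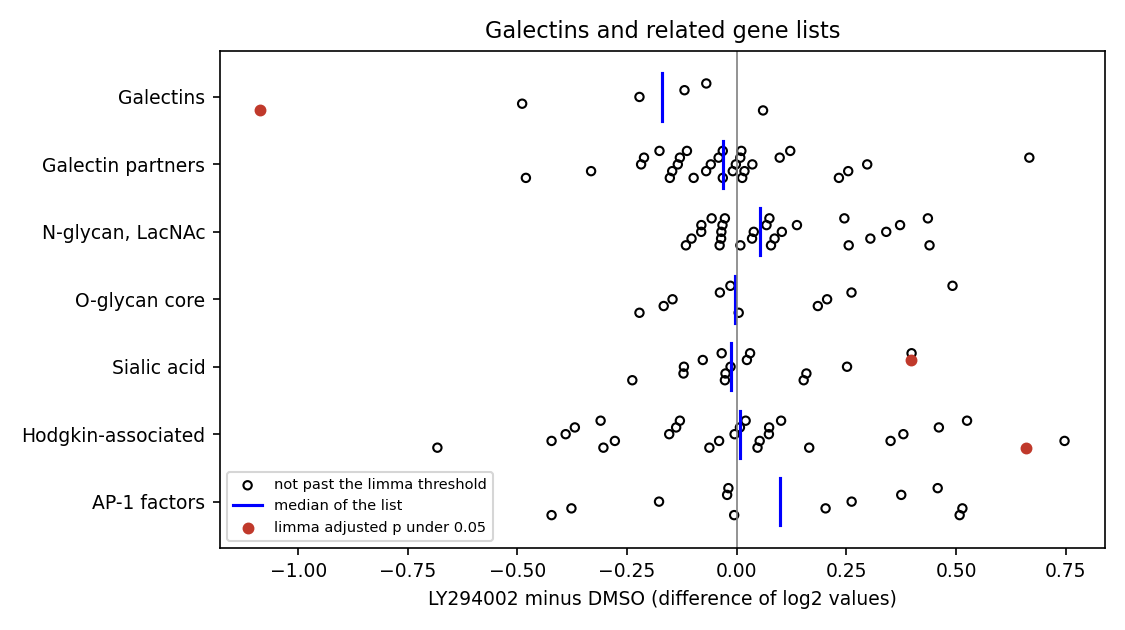
Differences between LY294002 and DMSO (horizontal axis, log2) for the galectin genes and 6 related lists, with each list's median as a blue bar and genes past the limma threshold filled in red. LGALS2 is the lowest point of all lists, GNE and IRF4 are the filled points above 0, and the list medians other than that of the galectin genes lie between -0.03 and 0.10.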

How the data were processed

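Probe set values on a log2 scale, which the authors made with affy (an R package) per the submitters' processing notes, were used as deposited. Their background correction, summary method and version were not stated there. After 47 control probe sets were removed, 8746 were fitted with limma 3.58.1 in R 4.3.3 (group as the only term, 3 residual degrees of freedom), with Benjamini-Hochberg adjustment over all of them at 0.05. Errors of differences are standard errors of this fit. A gene was represented by its brightest probe set with 1 symbol in the platform annotation. Beyond the galectin genes and the 5 genes most like LGALS2, genes were named by a fixed rule: up to 5 past the threshold in a list, otherwise the 3 largest differences with separated groups, plus genes listed by name. The members and lists were chosen with earlier results of these data known. The script was tested on simulated data. Promoter windows came from RefSeq. Alternatives were 3 normalizations, a filter on the dimmest 40%, an intensity trend, array weights, a block on the replicate number, averaged probe sets, and each array left out. Figures were drawn with matplotlib 3.10.9.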

Additional observations from a re-analysis of the deposited data

How the results depend on the processing

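LGALS2 was between -1.15 and -1.05 and LGALS9 between -0.57 and -0.40 under all 13 alternatives, and LGALS3, LGALS4 and LGALS8 stayed below 0 in those where they were measured; LGALS3 and LGALS8 are among the dimmest 40% and have no value with that filter. LGALS1 was below 0 in 1 of 13, without DMSO replicate 2. Not all of the alternatives can move a difference. The filter on dim probe sets and the intensity trend leave it unchanged, as does averaging, since each galectin gene has 1 probe set. The replicate block gave the same differences as leaving out DMSO replicate 3. Leaving out LY294002 replicate 1 put LGALS8 at -0.01, and leaving out the other LY294002 array put it at -0.13.

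Counts past the limma threshold depended more on the setting. Over all genes, 70 became 299 after quantile normalization, 147 after median centring, 264 after cyclic loess, 203 without dim probe sets, 17 with array weights, 0 with the replicate block and 0 to 4 with 1 array left out, where 946 to 2085 genes had an unadjusted p under 0.05. The galectin count of 1 was 0 with array weights, 0 with the replicate block and 0 in every fit with 1 array left out. The count of galectin partner genes was 1 after quantile normalization in place of 0. For glycan synthesis genes it was 3 after quantile normalization, 2 after median centring, 2 after cyclic loess, 2 with an intensity trend and robust prior, 0 with array weights, 0 with the replicate block and 0 in every fit with 1 array left out, in place of 1. For Hodgkin-associated genes it was 5 after quantile normalization, 2 after median centring, 4 after cyclic loess, 3 without dim probe sets, 0 with array weights, 0 with the replicate block and 0 in every fit with 1 array left out, in place of 1. For AP-1 factor genes it was 2 after quantile normalization and 2 after cyclic loess, in place of 0. Fits with 1 array left out or with the block have fewer residual degrees of freedom; otherwise the cause was not tested.

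The replicate numbers are not known to pair arrays. Deviations of same-numbered arrays correlated at 0.0021 and -0.21 across probe sets. No differently numbered arrays were set beside them, so these values cannot decide whether the numbers pair arrays. With the replicate block LGALS2 was at -1.05.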
